A study of Mus musculus with 9 samples.

Results

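The regions of open chromatin nearest the genes of 10 transcriptional repressors and inhibitors were described in cells of the embryonic mouse cochlea: *Hes1*, *Hes5*, *Hes6*, *Hey1*, *Hey2*, *Heyl*, *Id1*, *Id2*, *Id3* and *Id4*. A peak belonged to one of these genes when its summit lay nearest, and within 500 kb, to that gene's start site among the start sites of all protein-coding transcripts in mm9 (GENCODE vM1). Of 286577 peaks in 9 lists, 437 met this rule, and merging the peaks of all lists within 100 bp gave 99 regions of 69354. The *Hes* and *Hey* genes took 53 of the regions and the *Id* genes 46. The rule uses position alone, and no link between a region and a gene was measured.

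ATAC-seq, in which a transposase cuts and tags accessible DNA, was run on cells sorted from dissected cochlear ducts of the strain B6;129S-Sox2tm2Hoch/J, whose embryos carry EGFP knocked into one *Sox2* allele. Sox2-EGFP+ cells, gated for the highest EGFP signal, were profiled at E12, E14.5 and E16 with 2 samples each, and Sox2-EGFP- cells at E14.5 with 1 sample and at E16 with 2. Both cell types therefore carry the *Sox2* knock-in, cells of intermediate EGFP belong to neither, and per the study's methods each Sox2-EGFP+ sample pooled the ducts of 1 litter. Each sample is a mixture of cells, so that fewer open cells of a type and less open DNA per cell cannot be told apart.

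Hes and Hey proteins are basic helix-loop-helix repressors. Several of their genes, though not all, are switched on when a Notch receptor is cleaved and its intracellular part joins the DNA-binding protein Rbpj. The proteins bind N-box and class C sites. In the cochlea several of them hold down *Atoh1*, the gene that starts hair cell formation, in the cells that become supporting cells. Hes6 lacks much of this activity and can oppose Hes1. Id proteins have a helix-loop-helix domain without a DNA-binding part, and they take up the E proteins that Atoh1 needs as partners. Bmp signalling through Smad proteins is a well-known inducer of *Id* genes.

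The lists held between 7577 and 66332 peaks, the shortest at E12 and the longest in E14.5 Sox2-EGFP+ replicate 1 and E16 Sox2-EGFP+ replicate 2, so a missing peak was not read as closed chromatin. The authors kept a peak only when a second list of its cell type overlapped it, and 100% of the peaks did so here. The lists held no reads, and the main measure was therefore the rank of a peak by its −log10 p within its own list, where 1 is the highest and tied peaks share a mean rank. Separate cell type tags in the labels contradict the titles of 3 of the 4 E16 samples, and samples were grouped by title. Of 29 regions near 6 genes of the otic mesenchyme, 3 to 4 were among the 7500 highest peaks of each library titled Sox2-EGFP- and 0 to 1 of each library titled Sox2-EGFP+. Of 118 regions near 7 prosensory genes, 82.2% had peaks in Sox2-EGFP+ lists alone, against 65.5% of all regions, and 44.1% came from the 2 longest lists alone. Among the 7500 highest peaks they numbered 4 and 3 in the E16 Sox2-EGFP+ samples and 3 in each E16 Sox2-EGFP- sample, so by this measure they did not separate those libraries. Regions near 4 Schwann cell and glial genes numbered 12, of which 10 had peaks in Sox2-EGFP+ lists alone. Regions near macrophage, endothelial and nonsensory roof genes numbered 7, 30 and 17, with 6, 21 and 13 in Sox2-EGFP+ lists alone. One of the macrophage regions, near *Clec7a*, went the other way, within the 7500 highest peaks of all 3 Sox2-EGFP- lists and of no Sox2-EGFP+ list, and the part of these cells in the results below was not tested.

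Of the 99 regions, 63 (63.6%, 95% Clopper-Pearson interval 53.4% to 73.1%, counting error alone) had peaks in Sox2-EGFP+ lists alone, 32 in both cell types and 4 in Sox2-EGFP- lists alone. Over all regions these classes made up 65.5%, 28.8% and 5.63%, close to the shares near the 10 genes. The longest pair of lists was the sole source of 28 of the 99 regions (28.3%, against 35.4% of all regions), and 12 had a peak in all 9 lists (12.1% against 7.31%). Without that pair of lists the share in Sox2-EGFP+ lists alone was 23.4% of 47 regions, and 20.3% of all regions. With the 7500 highest peaks of each list it was 48.1% (13 of 27 regions), and 34.6% of all regions. That difference was not tested.

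**Figure D1:**
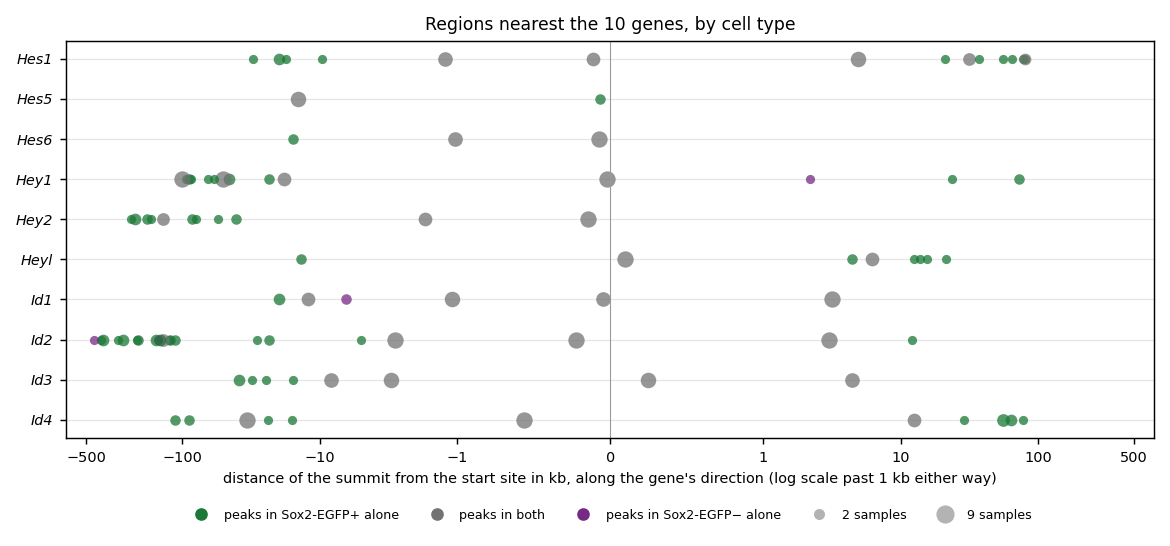
Each point is 1 of the 99 regions, placed by the distance of its summit from the start site in kb along the direction of the gene (log scale past 1 kb either way), coloured by the cell types with a peak and sized by the number of samples with a peak. The regions within 1 kb are nearly all shared by both cell types, those past 10 kb are mostly found in Sox2-EGFP+ lists alone, and all 20 regions past 100 kb lie upstream.

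Distance from the gene went with this class. Within 1 kb of a start site lay 10 regions, 9 of them shared by both cell types. The other had peaks in Sox2-EGFP+ lists alone, as did 18.2% of all regions at that distance. From 1 to 10 kb there were 17 regions, and 17.6% of them had peaks in Sox2-EGFP+ lists alone, or 3 of 17, against 75.9% of all regions at that distance. From 10 to 100 kb the share was 82.7% of 52 regions (78.6% of all regions), and from 100 to 500 kb it was 80% of 20 regions (80.8%). In the band from 1 to 10 kb, 12 of the 17 regions had peaks in both cell types, and this comparison is a description without a test. Of the 99 summits, 81 were intergenic.

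The genes differed in how many regions surrounded them. *Id2* had 21 regions over the 561 kb that lie nearer to it than to another protein-coding gene, and 99.0% of all genes have fewer. Per 100 kb, however, *Id2* had 3.75 regions, close to the median of 3.48 over all genes. *Heyl* and *Id1* stood at the other end, with 19.7 and 17.9 regions per 100 kb, more than in 97.7% and 97.0% of genes. *Hes1* had 15 regions, *Hey1* 14, *Hey2* and *Id4* 11 each, *Id3* 8, *Hes6* 3 and *Hes5* 2.

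The regions at the start sites themselves differed widely in rank. A promoter region was any region within 1000 bp upstream to 100 bp downstream of a protein-coding start site, and the start-site regions were placed among 14725 of them by their mean log2 rank over the 9 samples, with ranks past 7500 and missing peaks set just past 7500. The region at *Hes6* stood highest, with 9.05% of promoter regions above it, followed by *Hey2* (11.5%), *Id4* (19.3%), *Id2* (24.4%), *Hey1* (30.9%) and *Id3* (39.6%). *Heyl* (58.3%), *Hes1* (64.4%), *Hes5* and *Id1* (65.6% each) stood in the lower part. The last pair never ranked within the 7500 highest peaks of any list, so they are tied with all other promoter regions at that limit. The order is one of rank within the lists and not of expression.

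**Figure D2:**
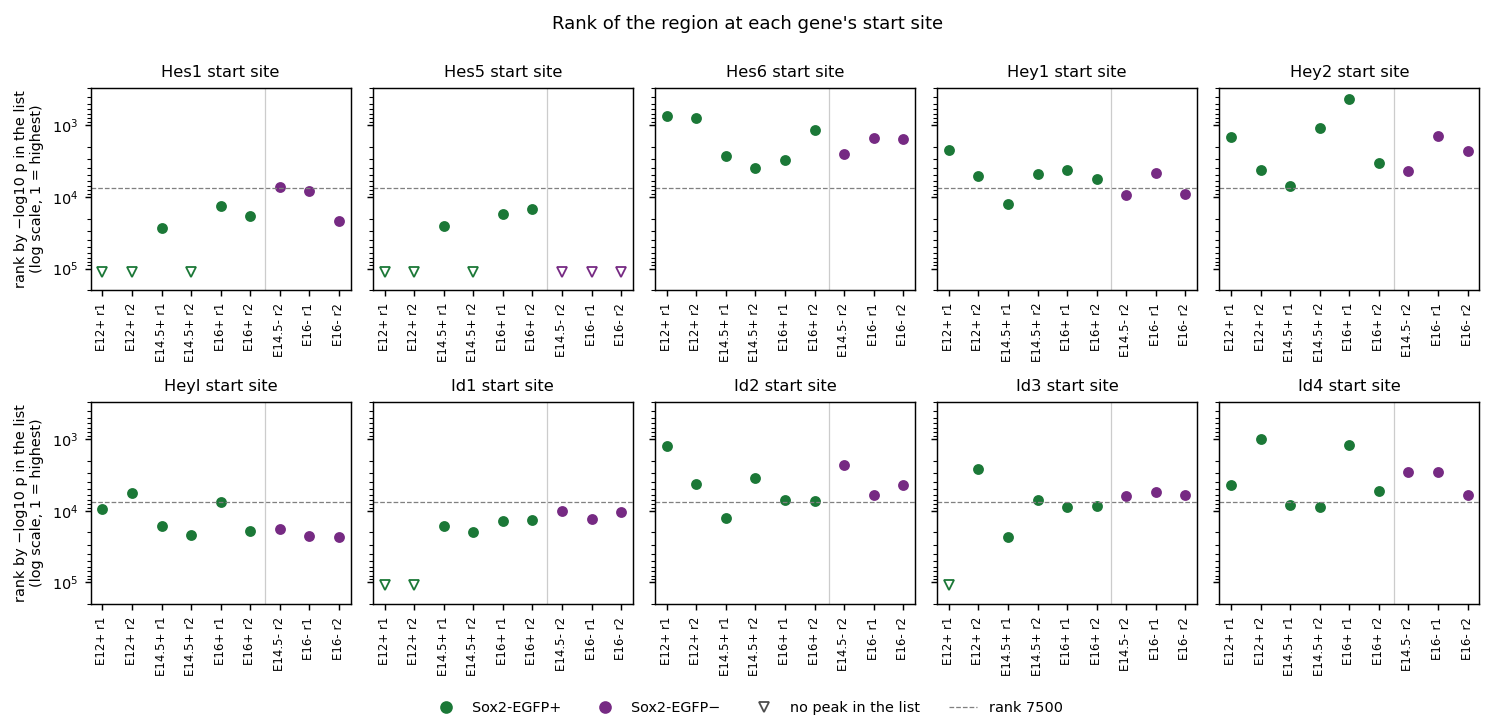
Each panel gives the rank of the region at 1 start site in the 9 lists (log scale, 1 at the top), with Sox2-EGFP+ samples in green, Sox2-EGFP- samples in purple, open triangles for lists without a peak and a dashed line at rank 7500. *Hes6* and *Hey2* lie above the line in all 9 samples, and *Hes5* and *Id1* below it in all. Ranks are drawn without the cap. With ranks past 7500 set just past it, the cell types are fully apart in no panel. As drawn, the *Id1* points of Sox2-EGFP- samples lie above those of every Sox2-EGFP+ sample, all past rank 7500 in lists of unlike length.

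*Hes1* is a direct Notch target and the repressor that marks supporting cells and their progenitors. Its start-site region (chr16:30065156-30065536) had no peak in either E12 list, ranked 27417 in E14.5 Sox2-EGFP+ replicate 1 with no peak in replicate 2, and ranked 13361 and 18690.5 in the E16 Sox2-EGFP+ samples. In Sox2-EGFP- samples it ranked 7237 at E14.5 and 8127 and 21727 at E16, so it was present in all 3 of these and in 3 of 6 Sox2-EGFP+ lists. Its ranks overlapped between cell types. The region 4.94 kb downstream of the start (chr16:30070116-30070997) was more regular, with ranks between 5912 and 20039 in 8 of 9 lists and none in E12 replicate 2. A region 19.7 kb upstream (chr16:30045588-30046111) had peaks in all 4 Sox2-EGFP+ lists from E14.5 and E16, at ranks from 10971 to 19816.5, and in no other list. Of the 15 *Hes1* regions, 8 came from the longest pair of lists alone.

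*Hes5*, another Notch target of the cochlear epithelium, had 2 regions. The one at its start site (chr4:154334694-154335209) was the only start-site region of the 10 without a peak in Sox2-EGFP- lists, and it ranked 25634 in E14.5 replicate 1 and 17115 and 14902 in the E16 Sox2-EGFP+ samples. No E12 list and not E14.5 replicate 2 held it. The summit of this region also lies in an exon of a non-coding transcript (RP24-89N4.5). The region 14.4 kb upstream (chr4:154320311-154320931) ranked 6754 in E12 replicate 1, 6853 and 8304.5 at E14.5, and 10569.5 and 4442 at E16 in Sox2-EGFP+ cells. In Sox2-EGFP- cells it ranked 10768.5, 14942 and 12579. As a percentage of the length of the list, its places were 6.74% to 48.9% in Sox2-EGFP+ and 46.2% to 62.7% in Sox2-EGFP- lists, and E12 replicate 2, the shortest list, had no peak there, so that the groups overlapped.

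The 250 bases upstream of the start sites were read from mm9, because 3 of the 10 genes carried the Rbpj motif GTGGGAA there (either strand), against 5.13% of 45969 promoters of that length. These were *Hes1*, *Hes5* with 2 matches, and *Hey2*. *Hes1* also had 3 N-boxes (CACNAG, found in 35.6% of promoters) and 4 class C sites (CACGNG, 27.2%), of which 2 are CACGAG and count as both. In the *Hey2* promoter the Rbpj match overlaps a Tead match (GGAATG). Capitals mark the Rbpj, N-box and class C matches, each sequence runs 5′ to 3′ in the direction of the gene, and its last base is next to the start site.
Hes1 promoter (chr16:30065176-30065425, plus strand): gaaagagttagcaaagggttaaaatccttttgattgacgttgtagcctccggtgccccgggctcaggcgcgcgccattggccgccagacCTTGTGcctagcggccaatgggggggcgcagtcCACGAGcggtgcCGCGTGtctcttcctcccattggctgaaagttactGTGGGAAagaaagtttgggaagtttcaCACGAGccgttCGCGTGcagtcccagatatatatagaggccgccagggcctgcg
Hes5 promoter (chr4:154334782-154335031, plus strand): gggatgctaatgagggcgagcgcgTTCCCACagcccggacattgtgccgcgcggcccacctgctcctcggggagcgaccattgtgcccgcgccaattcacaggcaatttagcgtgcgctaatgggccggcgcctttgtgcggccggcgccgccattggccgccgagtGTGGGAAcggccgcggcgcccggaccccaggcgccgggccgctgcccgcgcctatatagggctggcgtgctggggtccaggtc
Hey2 promoter (chr10:30562608-30562857, minus strand): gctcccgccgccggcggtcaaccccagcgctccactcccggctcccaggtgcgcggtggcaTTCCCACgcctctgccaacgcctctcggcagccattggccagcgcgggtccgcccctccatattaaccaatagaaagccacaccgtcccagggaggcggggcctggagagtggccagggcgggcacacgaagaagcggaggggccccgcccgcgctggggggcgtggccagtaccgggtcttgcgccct
*Hes5* in addition had 4 copies of the Smad GC box GGCGCC in these bases, a motif of 12.4% of promoters, and *Hey1* and *Id2* had 1 each. A match of letters is no measured site.

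*Hes6*, whose product can counter Hes1, had the start-site region with the highest mean log2 rank of the 10 (chr1:93309024-93310245). It ranked 737 and 788 at E12, 2688 and 3960 at E14.5 and 3017 and 1166 at E16 in Sox2-EGFP+ cells, and 2493.5, 1502 and 1557 in Sox2-EGFP- cells. Both E12 samples stood above all later Sox2-EGFP+ samples, while the cell types overlapped (difference in mean log2 rank -0.11, Sox2-EGFP+ minus Sox2-EGFP-, exact permutation p = 0.845, n = 6 and 3). A second region 1.04 kb upstream had peaks in 7 of 9 lists, none at E12. The third, 15.6 kb upstream, lay in an intron of *Per2*, a clock gene, and appeared in 3 Sox2-EGFP+ lists at ranks from 17591 to 46138.

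*Hey1* had the one region of the 99 whose ranks, capped at 7500, were fully apart between cell types. Hey1 is a repressor downstream of Notch that marks prosensory cells before hair cells form. Its region 99.9 kb upstream (chr3:8766541-8768171) ranked 1076 and 592.5 at E12, 1455 and 1435 at E14.5 and 6332.5 and 1650 at E16 in Sox2-EGFP+ cells. The same region ranked 15930 in E14.5 Sox2-EGFP- cells and 19874 and 13431.5 in E16 Sox2-EGFP- cells. Every Sox2-EGFP+ sample was thus above every Sox2-EGFP- sample, and both E12 samples were above both E14.5 samples, which were above both E16 samples. That stage order is one of raw ranks in lists of unlike length, of which the E12 lists are the shortest. By percentile of the whole list, 0 of the 99 regions, and so not this one, were higher in both E12 than in all later Sox2-EGFP+ samples. At this *Hey1* region the fold enrichment over local background had a median of 8.10 in Sox2-EGFP+ and 4.62 in Sox2-EGFP- lists. The mean log2 rank, with ranks past 7500 set just past it, was 10.60 ± 1.13 (SD, n = 6) against 12.87 with all 3 samples at that limit, a difference of -2.27. The two-sided exact permutation p was 0.0119, the smallest that the 84 splits allow, and the value adjusted over all 69354 regions was 1.

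On the capped scale this was the only region of the 99 that was higher in all 6 Sox2-EGFP+ than in all 3 Sox2-EGFP- samples, and 0.347% of all regions did so. Among the 26 regions of the 10 genes that ranked within the 7500 highest peaks of some list it was 1 of 26, against 1.58% of such regions in all. None was lower in all 6 Sox2-EGFP+ samples, as were 0.487% of all regions and 2.21% of those ranked within 7500. By the exact permutation p under 0.05, 1 region was higher (0.296% of all regions) and 0 lower (0.995%). Counts of 1 and 0 in 99 say little against these backgrounds. By percentile of the whole list the *Hey1* region and the one 3.00 kb downstream of *Id2* were higher in every Sox2-EGFP+ sample, and the regions 31.3 kb downstream of *Hes1* and 6.42 kb upstream of *Id1* were lower. In sequencing batch 2 alone the *Hey1* regions at 99.9 and 50.7 kb were higher. No share of all regions stands beside the counts by percentile and in batch 2, so they were not compared with a background. Ranking by fold enrichment left 0 regions apart, as did the 5000 highest peaks of each list, since E16 Sox2-EGFP+ replicate 1 ranked past that limit at the *Hey1* region. With E14.5 and E16 samples alone the *Hey1* region was again the one region that was higher (0.757% of all regions, 3.43% of those ranked within 7500), and the start-site region of *Id3* was the one that was lower (0.773% and 3.5%).

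Between this region and the gene, the one 50.7 kb upstream (chr3:8717249-8718035) had peaks in all 9 lists. It ranked 1166.5 and 3311 at E12, 1521 and 3732.5 at E14.5 and 4965.5 and 3656 at E16 in Sox2-EGFP+ cells, and 4314, 8716 and 5613 in Sox2-EGFP- cells. The groups overlapped through E16 replicate 1 and the E14.5 Sox2-EGFP- sample, and the difference of -1.06 in mean log2 rank had an exact permutation p of 0.0833. The start-site region (chr3:8666671-8667882) was also in all 9 lists, at ranks from 2189.5 to 12395 in Sox2-EGFP+ and from 4619.5 to 9442 in Sox2-EGFP- cells. A region 2.21 kb downstream, in a coding exon of *Hey1* (chr3:8664580-8664971), had peaks in 2 Sox2-EGFP- lists alone, at ranks 14719.5 and 15350.5. If start sites of non-coding transcripts are allowed as well, the small nucleolar RNA SNORA17 is nearer than *Hey1* to both upstream regions, at 87.5 kb from the far one and 38.3 kb from the near one.

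Among the 7500 highest peaks, the number nearest *Hey1* carried the same region over into a count per gene. *Hey1* had 3 such peaks in 5 Sox2-EGFP+ lists, 2 in E14.5 replicate 1 and 1 in each Sox2-EGFP- list, a difference in the mean of 1.83 with an exact permutation p of 0.0119. Of 11744 genes, 1.88% passed that unadjusted threshold with more peaks in Sox2-EGFP+ lists, and the adjusted p was 0.748. Without the region at 99.9 kb the counts were 2 in 5 Sox2-EGFP+ lists and 1 in E14.5 replicate 1 and in each Sox2-EGFP- list, so that the groups overlapped. Over all peaks, per 10000 of the list, *Hey1* did not pass an unadjusted exact permutation p of 0.05 and *Hey2* did, with 0.48 more peaks in Sox2-EGFP+ lists. No share of all genes stands beside this measure, so the *Hey2* result was not compared with a background. For the other 9 genes the means differed by -0.667 (*Id3*) to 0.667 (*Id2*), with exact permutation p from 0.167 to 1.

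**Figure D3:**
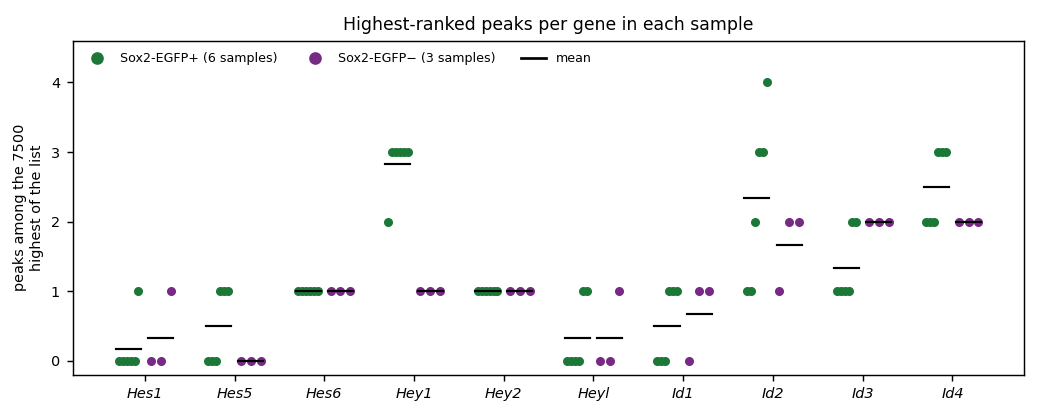
The number of peaks assigned to each gene among the 7500 highest of each list (vertical axis), with 1 point per sample and a black bar for the mean of the 6 Sox2-EGFP+ (green) or 3 Sox2-EGFP- samples (purple). The *Hey1* points of the cell types do not overlap, at 2 to 3 against 1, and those of every other gene do.

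*Hey2*, which keeps cells near the hair cell region from differentiating and is under Notch and Fgf control, had a strong and variable start-site region (chr10:30562013-30563338). It ranked 1479 and 4224 at E12, 7130 and 1088 at E14.5, and 434 and 3336 at E16 in Sox2-EGFP+ cells. The Sox2-EGFP- ranks of 4406, 1409.5 and 2257 lay inside that span. Upstream of it, 10 further regions reached to 234.4 kb, and 8 of these had peaks in Sox2-EGFP+ lists alone. The one at 85.5 kb (chr10:30647627-30648419) ranked 10441 in E14.5 replicate 1 and 21991.5 and 15987.5 at E16.

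*Heyl* is the third Hey gene and is expressed in otic and vascular cells. Its start-site region (chr4:122910699-122911313) ranked 9344.5 and 5690.5 at E12, 16401.5 and 21786 at E14.5 and 7480.5 and 19015.5 at E16 in Sox2-EGFP+ cells. In Sox2-EGFP- cells it ranked 18076, 22628.5 and 23479. As a percentage of the length of the list these places were 19.03% to 94.9% in Sox2-EGFP+ and 77.6% to 98.2% in Sox2-EGFP- lists, which overlapped. A region 6.21 kb downstream, in an intron of *Heyl* (chr4:122916657-122917472) and 0.006 kb from the start of another annotated transcript of the gene, ranked 11635.5, 9077 and 6659 in the 3 Sox2-EGFP- lists. It ranked 14161.5, 13089 and 19849 in the 3 Sox2-EGFP+ lists that held it, which are longer. As a percentage of the length of the list its places were 21.4% to 33.3% in these and 27.9% to 49.9% in Sox2-EGFP- lists, so the order of the raw ranks was not kept.

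The sequences at the summits of 5 regions away from start sites are given as the 201 bases centred on the highest summit (mm9, plus strand), to show letters at regions away from start sites whose ranks are given in the text. Capitals mark matches on both strands to the Rbpj, N-box, class C, Tead and Smad GC box letters given above, and to 4 further motifs. These are the E-box CAGCTG, which Atoh1 and other basic helix-loop-helix activators can bind, and a second Smad motif with the letters GTCTAG. They also include CATTGTT for the Sox family to which Sox2 belongs, and AGATAA for the Gata family, which includes Gata3 of the cochlea.
Hey1, 99.9 kb upstream (chr3:8766834-8767034): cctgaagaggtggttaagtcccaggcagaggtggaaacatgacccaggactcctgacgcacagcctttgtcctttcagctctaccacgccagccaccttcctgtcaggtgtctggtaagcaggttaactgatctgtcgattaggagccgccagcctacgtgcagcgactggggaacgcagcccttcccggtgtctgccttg
Hes5, 14.4 kb upstream (chr4:154320559-154320759): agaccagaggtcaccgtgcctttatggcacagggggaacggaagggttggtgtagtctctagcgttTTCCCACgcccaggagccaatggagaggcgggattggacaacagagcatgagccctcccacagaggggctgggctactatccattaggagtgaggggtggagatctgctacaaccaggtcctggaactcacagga
Id1, 6.4 kb upstream (chr2:152555463-152555663): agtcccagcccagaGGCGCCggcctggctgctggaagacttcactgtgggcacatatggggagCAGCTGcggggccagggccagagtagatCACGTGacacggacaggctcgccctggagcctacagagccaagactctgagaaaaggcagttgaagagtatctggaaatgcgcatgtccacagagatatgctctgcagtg
Id2, 155 kb upstream (chr12:25935784-25935984): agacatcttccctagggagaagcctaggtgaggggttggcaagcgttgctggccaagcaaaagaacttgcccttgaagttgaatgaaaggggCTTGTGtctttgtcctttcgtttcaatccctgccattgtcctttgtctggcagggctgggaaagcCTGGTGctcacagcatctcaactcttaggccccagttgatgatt
Id4, 33.5 kb upstream (chr13:48323162-48323362): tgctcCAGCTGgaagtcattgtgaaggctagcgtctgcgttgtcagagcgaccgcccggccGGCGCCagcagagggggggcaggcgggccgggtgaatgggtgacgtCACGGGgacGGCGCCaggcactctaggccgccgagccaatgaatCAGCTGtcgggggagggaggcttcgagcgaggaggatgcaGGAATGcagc
The *Hes5* region holds an Rbpj match, the *Id1* region an E-box, a class C site and a Smad GC box, and the *Id2* region 2 N-boxes, and the *Id4* region 2 E-boxes, 2 Smad GC boxes, a class C site and a Tead match. In the *Hey1* region none of the 9 letter strings occurs in these bases.

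*Id1*, a classical Bmp target, had 6 regions. The one 3.2 kb downstream of the start site had peaks in 9 lists and ranked within the cap in 3. The one 1.1 kb upstream had peaks in 8 lists and ranked within the cap in 2, while the start-site region never did. The *Id1* start-site region (chr2:152561702-152562319) had no E12 peak and ranked between 13344 and 19914 in later Sox2-EGFP+ samples and at 9960, 12840 and 10400 in Sox2-EGFP- samples. These are raw ranks in lists of unlike length. By percentile of the whole list the difference was 0.10 on the log2 scale, and on the capped scale it was 0. A region 6.42 kb upstream (chr2:152555231-152555804) had peaks in all 3 Sox2-EGFP- lists, at ranks 11240.5, 12310 and 16402.5, and in none of the 6 Sox2-EGFP+ lists, 2 of which are far longer. It was the one region of the 99 found in every Sox2-EGFP- list and in no other, against 2.34% of all regions. By contrast a region 19.8 kb upstream (chr2:152541727-152542494) had peaks in 4 Sox2-EGFP+ lists alone, at ranks from 12617 to 17943.

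*Id2*, which is expressed widely in the cochlear duct, had its start-site region (chr12:25780788-25781375) in all 9 lists. It ranked 1259 and 4230 at E12, 12417 and 3502 at E14.5 and 7077 and 7300 at E16 in Sox2-EGFP+ cells, and 2334, 6044 and 4387 in Sox2-EGFP- cells. The groups overlapped. The region 3.00 kb downstream (chr12:25777155-25778546) ranked 2628 and 2371.5 at E12, above the later Sox2-EGFP+ ranks of 15455, 6639, 7777 and 19355. The Sox2-EGFP- ranks there were 15549.5, 12712 and 18744.

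Past 10 kb upstream of *Id2* lay 16 regions, 14 of them past 100 kb. The one with the highest mean log2 rank, 155 kb upstream (chr12:25935421-25936640), ranked 2587 and 9247 at E14.5 and 9996 and 8503.5 at E16 in Sox2-EGFP+ cells. Neither E12 list nor any Sox2-EGFP- list had a peak there. Regions 149 and 438 kb upstream went the other way, with peaks in 2 Sox2-EGFP- lists each and in no Sox2-EGFP+ list.

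*Id3*, another Bmp-responsive member, had its nearest region (chr4:135699456-135700114) just downstream of the start site, 44 bp past it. No peak was found in E12 replicate 1, and the Sox2-EGFP+ ranks were 2630 in E12 replicate 2, 23461 and 7018.5 at E14.5 and 8876 and 8578 at E16. The Sox2-EGFP- ranks of 6178, 5401 and 5945 were above all 4 Sox2-EGFP+ samples of the same stages, and with those 7 samples alone the difference in mean log2 rank was 0.34. The exact permutation p was then the smallest that 35 splits allow (0.0286), and over all 9 samples it was 0.869. The region 3.05 kb upstream (chr4:135696193-135696799) was higher in both E16 (5392 and 3058) than in both E14.5 Sox2-EGFP+ samples (7161 and 8127).

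*Id4* had a distal region with high ranks in every list. This region 33.5 kb upstream (chr13:48323024-48323832), in an intron of the non-coding gene A330033J07Rik, ranked between 912.5 and 2677.5 in Sox2-EGFP+ samples and between 2167.5 and 2870 in Sox2-EGFP- samples. Its fold enrichment had a median of 10.9 in Sox2-EGFP+ and 8.37 in Sox2-EGFP- lists. Both E16 (1582 and 1006) were above both E14.5 samples (2187.5 and 2316), but the cell types overlapped (difference -0.55, exact permutation p = 0.190). The start-site region (chr13:48355970-48358397) ranked 4402 and 989.5 at E12, 8394 and 8980.5 at E14.5 and 1223.5 and 5244.5 at E16 in Sox2-EGFP+ cells. The E14.5 samples were thus the lowest, and Sox2-EGFP- cells ranked 2914.5, 2883 and 5998. A region 55.5 kb downstream (chr13:48411812-48412657) had peaks in 5 of 6 Sox2-EGFP+ lists, at 12009.5 in E12 replicate 1, 6294.5 and 5424 at E14.5 and 9071 and 7285 at E16, and in no Sox2-EGFP- list.

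**Figure D4:**
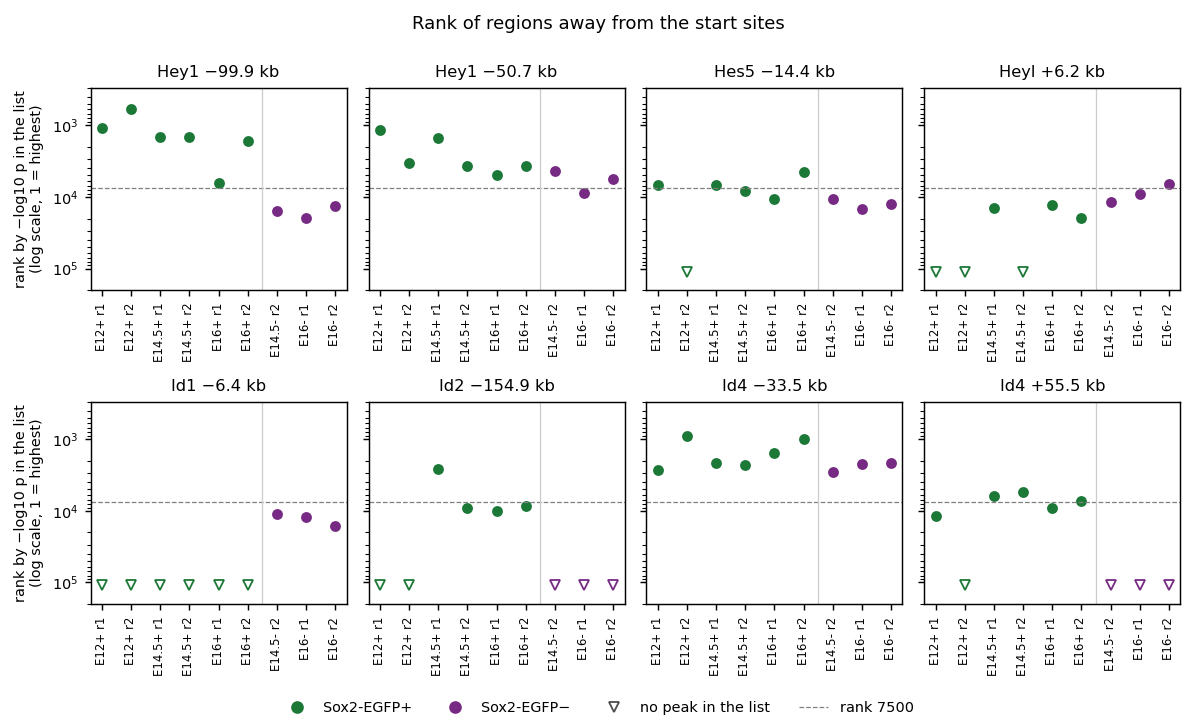
Each panel gives the rank of 1 region away from the start sites in the 9 lists (log scale, 1 at the top), marked as in the plot of start-site ranks. The *Hey1* region at 99.9 kb is apart between the cell types, the *Id2* region at 155 kb and the *Id4* region at 55.5 kb have no Sox2-EGFP- peak, and the *Id1* region at 6.4 kb has no Sox2-EGFP+ peak.

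Between stages, 3 of the 99 regions were higher in both E12 samples than in all 4 later Sox2-EGFP+ samples, against 1.28% of all regions and 5.78% of those within the 7500 highest peaks of some list. They were the *Hes6* start site, the region 3.00 kb downstream of *Id2* and the *Hey1* region at 99.9 kb. None was lower in both E12 samples (1.48% and 6.69%). As percentiles of the whole list these counts turned to 0 and 17, and leaving out E12 replicate 1, E12 replicate 2 or E14.5 replicate 2 raised the first to 10, 7 and 5. Shares of all regions were not set beside these changed counts. The E12 lists are the shortest, so the same rank is a lower place by percentile there. The part of list length in the count of 17 was not tested. With 2 against 4 samples the smallest p is 0.0667, so no stage difference could pass the threshold. Between E14.5 and E16, 2 regions were higher at E14.5 (1.65% of all regions, 7.48% of those ranked within 7500), the *Hey1* region at 99.9 kb and the *Id4* region at 55.5 kb. Higher at E16 were 3 (1.93% and 8.76%), the *Id4* start site, the *Id4* region at 33.5 kb and the *Id3* region at 3.05 kb.

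In the start-site regions no exact permutation p was under 0.05 over the 9 samples, with values from 0.310 (*Hey1*) to 1. For *Hes1*, *Hes5*, *Heyl* and *Id1* the test could not decide, because too few of their ranks lay within the cap for it to pass. *Hes5* and *Id1* had every sample at the cap, while *Hes1* ranked within it in 1 list and *Heyl* in 2.

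Genes of the same pathways were counted in the same way. Near 17 genes of the Notch pathway (ligands such as *Jag1*, receptors, *Rbpj* and its cofactors) lay 133 regions, near 18 of the Bmp pathway (ligands, receptors, Smads and antagonists) 167, and near *Hes2*, *Hes3*, *Hes7*, *Helt*, *Bhlhe40* and *Bhlhe41* 21. Of these, 0 were higher and 0 lower in all 6 Sox2-EGFP+ samples. Near *Atoh1*, *Neurog1*, *Neurod1* and the E protein genes *Tcf3*, *Tcf4* and *Tcf12* lay 64 regions, of which 0 were higher and 1, near *Tcf12*, was lower. The shares in Sox2-EGFP+ lists alone were 64.7% for the Notch, 70.1% for the Bmp, 67.2% for the *Atoh1* and 66.7% for the *Hes*-related genes, around the 65.5% of all regions.

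Letters shared by the regions were counted in 401 bases around each summit. The Rbpj motif occurred in 18 of the 99 regions (18.2%, against 9.48% of all regions), and in 6 of the 13 promoter regions (7.66% of all promoter regions). The E-box CAGCTG occurred in 38.4% (27.0% of all regions), the Smad GC box in 19.2% (11.2%) and the Tead motif in 32.3% (23.1%). Over the 99 regions, N-boxes (56.6% against 58.6%) and class C sites (30.3% against 30.3%) were as frequent as elsewhere. By kind, class C sites lay in 5 of 13 promoter regions (51.0% of all promoter regions) and in 29.1% of other regions (24.7%). Rbpj matches lay at the start sites of *Hes1*, *Hes5*, *Hey1*, *Hey2*, *Heyl* and *Id1*, while a pair of Rbpj core matches (TGGGAA) on opposite strands, 10 to 25 bases apart, occurred in 2 regions, near *Hey2* and *Id2* (2.02% against 0.371%). The median GC content was 53.9% in the 99 regions and 51.4% in all, and the part of base composition in the motif shares was not tested.

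**Figure D5:**
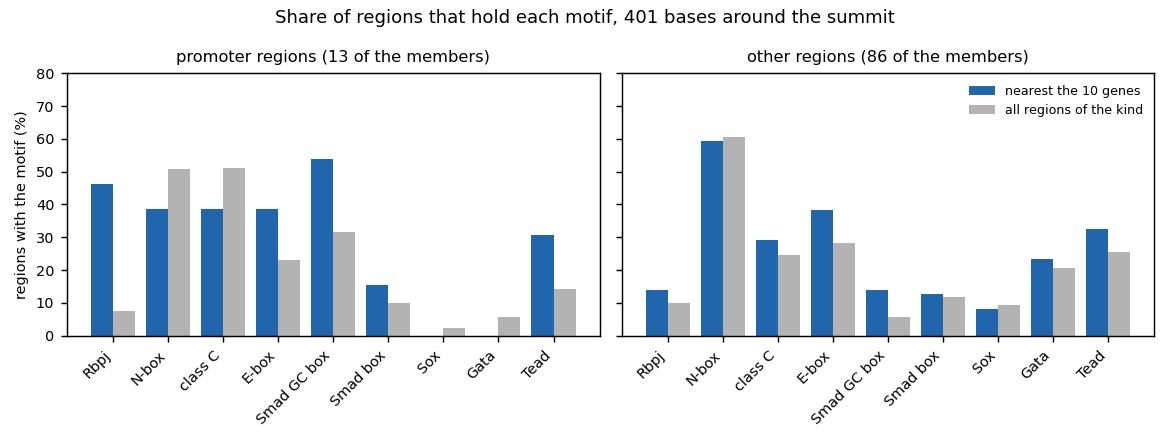
The share of regions that hold each motif (vertical axis, %, from 0) in promoter regions (left) and other regions (right), for regions nearest the 10 genes (blue) and all regions of the kind (grey). In promoter regions the Rbpj motif is at 6 of 13 against 7.66%. The Smad GC box (7 of 13 against 31.5%), E-box (5 of 13, 22.9%), Tead (4 of 13, 14.4%) and second Smad motif (2 of 13, 9.87%) are higher there too. The bars of the N-box and class C sites are no higher near the 10 genes than elsewhere in promoters.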

How the data were processed

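The deposited files were 9 lists of ATAC-seq peaks, 1 per sample, in mm9 coordinates. Per the labels and the study's methods, the reads were trimmed by Trim Galore and mapped by Bowtie2, and the authors removed duplicates with Picard and SAMtools, called peaks per sample with MACS2, and filtered them with BEDOPS and bedtools for overlap with a second list of that cell type. The values the authors deposited are the fold enrichment at the summit, a ratio to local background, and −log10 p and −log10 q. The deposited lists hold no reads, and read totals were not used here. List length was taken as a property of each list, and it need not follow sequencing depth. Samples were grouped by title, since other tags contradict the titles of 3 E16 samples.

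Peaks on chromosomes 1 to 19, X and Y were merged across lists within 100 bp, and 344 peaks elsewhere were left out. A region took the gene nearest to its highest summit. Ranks by −log10 p past 7500, and missing peaks, were set just past 7500 before log2 ranks were averaged, because the shortest list holds 7577 peaks. Differences are Sox2-EGFP+ minus Sox2-EGFP-, so a negative value is a higher place in Sox2-EGFP+ lists. Permutation tests were exact and two-sided by the absolute difference, over 84 splits for cell type and 15 for stage, with Benjamini-Hochberg adjustment over all regions or genes. Sox2-EGFP+ replicates came from separate litters per the methods, and for Sox2-EGFP- samples nothing says so, so that p-values measure the spread between these samples, which may be partly technical. Sequencing batch 1 held both E16 replicate 1 samples.

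For each gene the start-site region, up to 4 others by mean log2 rank, and up to 2 regions per cell type without a peak in the other type were open to naming. The regions near *Tcf12* and *Clec7a* and the *Hes1* region 31.3 kb downstream were named after their values were seen. The 10 genes, the lists and the motifs were chosen with earlier results of these data known. In these lists 1 marker gene and 1 motif are not reported here. Sequences and annotation came from the mm9 genome and GENCODE vM1. Python 3.11.15, NumPy 2.4.6, pandas 2.3.3, SciPy 1.17.1 and matplotlib 3.10.9 were used, and the code was tested on simulated data. Alternatives covered the number of peaks, rank measure, gene assignment, q threshold, batch, stage and each left-out sample.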

Additional observations from a re-analysis of the deposited data

Results flagged for a closer look

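The start-site region of *Id4* went opposite ways in the E14.5 and the E16 pairs of samples with the same number. Apart from the pairing, the E16 ranks of the cell types overlapped. The difference in log2 rank, Sox2-EGFP+ minus Sox2-EGFP-, was 1.36 in the single E14.5 pair, where the Sox2-EGFP- sample ranked higher, and -1.24 and -0.194 in the 2 E16 pairs, where the Sox2-EGFP+ samples ranked higher. The difference between stages was not tested, since E14.5 has 1 Sox2-EGFP- sample, and the pairs match samples by number alone.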

How the results depend on the processing

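The lists give ranks and no reads, and they hold 7577 to 66332 peaks. The 99 regions became 27 with the 7500 highest peaks of each list, 60 with start sites of all transcripts and 47 without the 2 longest lists (chosen after seeing the data). The share in Sox2-EGFP+ lists alone became 48.1%, 53.3% and 23.4%, against 34.6%, 65.5% and 20.3% of all regions in the same settings. Leaving out 1 sample gave 64 to 99 regions (64 without E14.5 Sox2-EGFP+ replicate 1) and shares of 43.8% to 70.1%. The shares of all regions in those 2 settings were 43.2% and 70.7%.

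Regions higher in every Sox2-EGFP+ sample numbered 2 in sequencing batch 2 alone and by percentile of the whole list, 0 with the 5000 highest peaks and by fold enrichment, and 1 to 2 without 1 sample. Regions lower in every Sox2-EGFP+ sample numbered 1 with E14.5 and E16 alone, 2 by percentile, and 0 to 1 without 1 sample. Samples of the same stage and number share a number and no stated origin, and at E16, the one stage that allows a check, their deviations from the group means correlated at r = 0.219. With the replicate block (3 pairs) the counts were 4 (1.65% of all regions) and 2 (1.96%), and 0 genes passed for their number of highest peaks, since 3 pairs cannot pass. The *Hey1* peak count differed by 2 under the block, 1.75 with E14.5 and E16 alone, 0.5 with all transcripts and 0.191 per 10000 peaks, none past the threshold, so that 0 genes passed with E14.5 and E16 alone and with all transcripts, and per 10000 peaks the 1 gene that passed was *Hey2* (0.48). Start-site regions with an exact permutation p under 0.05 numbered 1 with E14.5 and E16 alone, the *Id3* region, and 0 to 1 without 1 sample. Regions higher at E12 numbered 0 by percentile and 3 to 10 without 1 sample, and regions lower at E12 17 by percentile, 1 in batch 2 and without the 2 longest lists, and 0 to 1 without 1 sample. Shares of all regions were not set beside the counts of regions by percentile, in batch 2 or without 1 sample. Nor were shares of all genes set beside the numbers of genes that passed in these alternatives.

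Start-site differences that changed sign were never past the threshold. They were 0.46 (*Hes6*) and 0.24 (*Id4*) with E14.5 and E16 alone, -0.014 (*Id3*) and 0.0017 (*Id4*) in batch 2, -0.028 (*Id2*) and -0.15 (*Id3*) with the 5000 highest peaks, and 0.58 (*Hey2*), -0.016 (*Id2*), -0.071 (*Id3*) and 0.26 (*Id4*) by fold enrichment. Without the 2 longest lists they were -0.22 (*Id2*) and -0.039 (*Id3*), and under the block 0.42 (*Hes6*). Leaving out 1 sample moved *Hes6* from -0.36 to 0.13, *Hey2* from -0.63 to 0.20, *Id2* from -0.23 to 0.51 and *Id4* from -0.34 to 0.24. Differences in the number of highest peaks changed sign for *Id1* in batch 2 (0.1) and without the 2 longest lists (0.083), for *Hes5* (-0.043) and *Id3* (0.052) per 10000 peaks, for *Id4* with all transcripts (-0.33), and for *Hes1* without 1 sample (-0.33 to 0.17). The causes were not tested.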
